A study of Homo sapiens with 12 samples.

Results

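SNHG1 is a long noncoding RNA gene whose introns carry a series of box C/D small nucleolar RNAs (snoRNAs), and 8 of them were followed here: sno-U22, sno-U25, sno-U26, sno-U27, sno-U28, sno-U29, sno-U30 and sno-U31. They were chosen by name, as the entries of type snoRNA with these names in both deposited tables, with no threshold on their values, although earlier results of these data were known when the group was picked. All 8 were listed in both tables, among 287 snoRNA entries of 1231 noncoding RNA entries without LPS and 287 of 1139 with LPS.

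The data come from small RNA sequencing of Mono Mac 6 (MM6) cells, a human monocytic line, in 12 libraries that form 4 groups of 3. The cells were either wild type or ALOX-5 -/-, that is, knocked out for 5-lipoxygenase (5-LO), the enzyme that starts leukotriene synthesis. Every group, controls included, was differentiated with 1 ng/mL TGF-b and 50 nM calcitriol, for 72 h according to the labels. The general methods of the study give a longer time, while its sequencing figure gives the same time as the labels. Cells were left untreated or given 1 µg/mL LPS for the 6 h before harvest. LPS, from the outer membrane of gram-negative bacteria, activates such cells. The knockout was made with a lentiviral CRISPR/Cas9 vector, and a pair of single-cell clones, each with a frameshift on both alleles, was used throughout the study, but the labels do not say which clone a library came from. The study describes its sequencing as independent experiments, while the labels only number the libraries of a group. No messenger RNA was measured, so neither the loss of ALOX5 transcript nor the monocytic markers of the cells could be checked here. The study itself had checked its clones by sequencing around the guide site and by the absence of 5-LO protein on Western blots. The deposited tables, 1 without and 1 with LPS, hold a single column per genotype, which averages the normalized counts of its libraries. Each value below is therefore the authors' mean, without an error between replicates, and no new test between groups could be run on these means. P-values from the authors' own comparison were deposited beside the means but were not used.

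A box C/D snoRNA is cut out of a spliced intron and is stabilised by proteins that bind its box C, near the 5′ end, and its box D, near the 3′ end. Most members of the class guide the 2′-O-methylation of ribosomal RNA (rRNA) by pairing with it just upstream of a box D. Host genes such as SNHG1 belong to the genes whose transcripts begin with an oligopyrimidine tract, as do those of ribosomal proteins. The spliced SNHG1 RNA is short-lived, so that its intron products are the abundant part of the transcript. sno-U25, sno-U27 and sno-U28 guide methylation of the small-subunit rRNA, and sno-U26, sno-U29, sno-U30 and sno-U31 that of the large-subunit rRNA. sno-U22 is known for its part in cutting the small-subunit rRNA from its precursor and not for guiding a methylation.

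In GRCh37, which is the hg19 build of the files, SNHG1 lies on the reverse strand of chromosome 11 from 62619450 to 62623425. The annotated transcript used here has 11 exons and 10 introns, and the 8 snoRNAs sat in 8 different introns. The sequences are shown to let the shared boxes and the unlike bodies be seen side by side. Each is given 5′ to 3′ as DNA of the transcribed strand from box C to box D, with these boxes in capitals.

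sno-U25: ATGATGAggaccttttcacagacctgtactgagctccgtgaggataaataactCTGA
sno-U26: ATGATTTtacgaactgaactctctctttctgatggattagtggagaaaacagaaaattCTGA
sno-U27: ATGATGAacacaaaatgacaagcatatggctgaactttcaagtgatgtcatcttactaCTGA
sno-U28: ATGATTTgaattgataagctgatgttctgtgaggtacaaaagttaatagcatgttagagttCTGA
sno-U29: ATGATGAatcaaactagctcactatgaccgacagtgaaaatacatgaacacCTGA
sno-U30: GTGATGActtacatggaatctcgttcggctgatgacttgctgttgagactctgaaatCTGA
sno-U31: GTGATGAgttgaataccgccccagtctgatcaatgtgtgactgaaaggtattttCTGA
sno-U22: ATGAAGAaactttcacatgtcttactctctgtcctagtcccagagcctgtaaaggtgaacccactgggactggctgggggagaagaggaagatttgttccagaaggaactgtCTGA

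From the 5′ end of the gene, sno-U25 lay in intron 1 (chr11:62623042-62623098), sno-U26 in intron 2 (chr11:62622769-62622830), sno-U27 in intron 3 (chr11:62622489-62622550) and sno-U28 in intron 4 (chr11:62622098-62622162). sno-U29 followed in intron 6 (chr11:62621381-62621435), sno-U30 in intron 7 (chr11:62621140-62621200), sno-U31 in intron 8 (chr11:62620803-62620860) and sno-U22 in intron 9 (chr11:62620387-62620502). The annotation used here holds no entry for these snoRNAs at SNHG1 itself, so the positions were found by sequence. For 5 of them, sno-U27 to sno-U31, the intron was the one that matched an annotated snoRNA gene of the same name elsewhere in the genome. sno-U25, sno-U26 and sno-U22 were placed by their boxes, by their length and by the order of the genes in RefSeq.

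Box C read ATGATGA or GTGATGA in 5 of the 8 sequences, ATGATTT in sno-U26 and sno-U28 and ATGAAGA in sno-U22, while box D read CTGA in all 8. From box C to box D, 7 of the snoRNAs span 55 to 65 bases, and sno-U22 spans 116. The distance from box D to the next exon was 74 to 103 bases in 7 of the introns and 215 in that of sno-U31. In a global alignment from box C to box D, boxes included, the closest of the 28 pairs had identical bases at 66.1% of the length of the longer sequence.

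**Figure D1:**
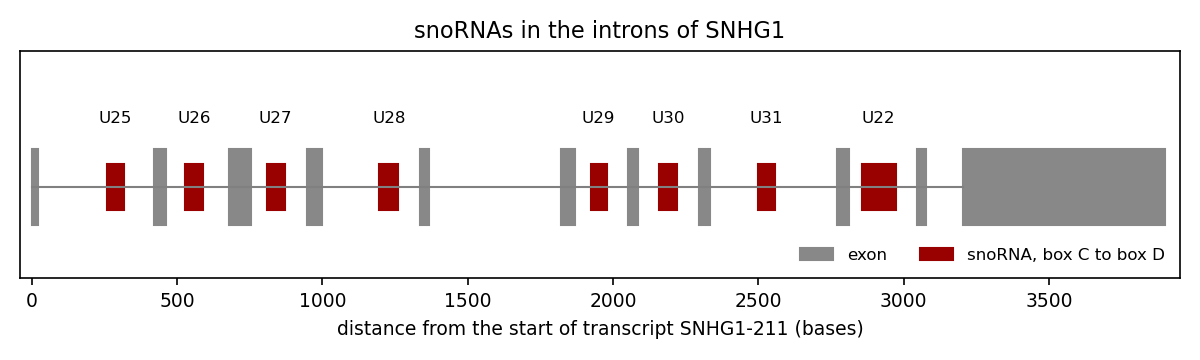
Map of an SNHG1 transcript to scale, with the distance from its start in bases on the horizontal axis, exons in grey and the snoRNAs from box C to box D in red. Each of the 8 snoRNAs has an intron of its own, and 2 of the 10 introns hold none of them.

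The snoRNAs of this one gene were listed at levels that differed by 3 orders of magnitude, from sno-U29 to sno-U22, the lowest and longest of the 8. The next lowest, sno-U28, had a wild-type mean of 5349 normalized counts without LPS. sno-U29 had the highest wild-type mean of all 287 snoRNA entries without LPS. Its means were 871321 (wild type) and 701208 (5-LO knockout) normalized counts without LPS, and 782402 and 798217 with LPS. sno-U26, at rank 3 among the snoRNAs in all 4 groups, had, in the same order, 522604 and 485850 normalized counts without LPS and 472395 and 501401 with LPS. Together these large-subunit guides made up 80.1% (wild type) and 77.9% (knockout) of the sum of the 8 without LPS, and 81.5% and 84.5% with LPS.

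The middle of the range held sno-U30, sno-U27, sno-U25 and sno-U31. sno-U30, a large-subunit guide, had 131828 and 142455 normalized counts without LPS, and 102217 and 71450 with LPS. Its knockout mean was thus the higher of the pair without LPS and the lower of the pair with LPS. sno-U27, a small-subunit guide, had 100636 and 73411 normalized counts without LPS and 86201 and 66060 with LPS, with the knockout mean below the wild-type mean in each table.

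sno-U25, another small-subunit guide, had 60248 and 55277 normalized counts without LPS, and 52379 and 42675 with LPS. sno-U31, a large-subunit guide, had 47112 and 60536 normalized counts without LPS and 39174 and 53460 with LPS, with the knockout mean above the wild-type mean in each table. This is the reverse of the order of sno-U27, which comes from the same transcript.

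The small-subunit guide sno-U28 had 5349 and 5023 normalized counts without LPS and 4793 and 4736 with LPS. sno-U22, the processing snoRNA after which the gene was once named, was the lowest, with 837 and 597 normalized counts without LPS and 736 and 816 with LPS. In wild-type cells without LPS the highest member stood 1041 times above the lowest. Divided by the length of the C-to-D stretch, the order in wild-type cells was the same as by counts: sno-U29 (15842 normalized counts per base), sno-U26 (8429), sno-U30 (2161), sno-U27 (1623), sno-U25 (1057), sno-U31 (812), sno-U28 (82.3) and sno-U22 (7.21). In knockout cells only sno-U31 (1044) and sno-U25 (970) changed places without LPS, and they did so with LPS as well (922 and 749). Whether neighbours in this order differ beyond the replicate spread is not known from means. The libraries were size-selected for precursor and mature miRNA, and the tables do not tell whole snoRNAs from fragments. Whether sno-U22, the longest of the 8, was recovered as fully as the shorter ones was not tested. sno-U22 and sno-U27 to sno-U31 also have annotated genes of the same name elsewhere in the genome, 8 in all, which were 80% to 94.7% identical to them over the part that aligned. For sno-U22 that part was only 20 bases long, and for the others 38 to 62 bases. How reads were divided between such copies is unknown, so the levels of sno-U27 to sno-U31 are less certain than those of sno-U25 and sno-U26.

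**Figure D2:**
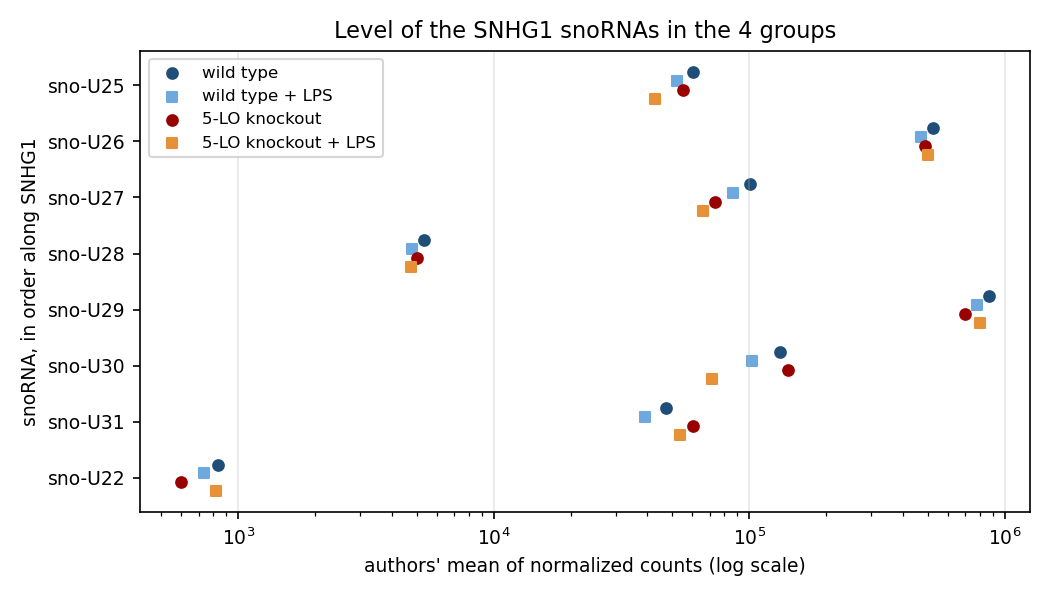
Authors' mean of normalized counts of each snoRNA (horizontal, log scale) in the 4 groups, with circles for untreated and squares for LPS-treated cells. Wild-type means without LPS run from 837 for sno-U22 to 871321 for sno-U29, and the ranges over the 4 groups overlap between sno-U30 and sno-U27 and between sno-U25 and sno-U31.

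The first comparison asked whether the 8 snoRNAs differ between knockout and wild-type cells and whether they do so as a block. Without LPS, 6 were lower and 2 higher in knockout cells, with a median log2 ratio of knockout to wild type of -0.11 (7 and 1, with a median of -0.29, when both genotypes were scaled to equal sums of all entries). The lower ones were sno-U22 (-0.49), sno-U27 (-0.46), sno-U29 (-0.31), sno-U25 (-0.12), sno-U26 (-0.11) and sno-U28 (-0.09). The higher ones were sno-U31 (0.36) and sno-U30 (0.11, but -0.06 with equal sums of all entries). The sum of the 8 was 1739935 (wild type) and 1524357 (knockout) normalized counts, a log2 ratio of -0.19. sno-U29 held the largest part of this gap. Of all snoRNA signal the 8 made up 25.1% in wild-type against 21.1% in knockout cells.

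None of the 8 differed by 1.5-fold or more, a size chosen as a guide because no test can be run on means. With equal sums of all entries, though, sno-U22 and sno-U27 passed it. Among all 662 entries with a mean of at least 10 over both genotypes, 27.8% differed by that much, and among the 276 snoRNAs 19.2% did. The median log2 ratio was 0.02 over all entries and 0.05 over the snoRNAs, of which 44.2% were lower in knockout cells. In bulk RNA, less snoRNA per cell and fewer cells that hold it cannot be told apart.

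The low means of each table were sums of whole multiples of 3 steps, 1 per library, which gave the relative depth of the libraries and the worth of a read. From these, the 95% counting interval of the log2 ratio without LPS ran from -0.316 to -0.311 for sno-U29 and from -0.58 to -0.40 for sno-U22, the snoRNA with the fewest reads. It left out 0 for all 8 snoRNAs. This interval covers the sampling of reads only and says nothing about the spread between cultures or clones.

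With LPS, 4 of the 8 snoRNAs were lower and 4 higher in knockout cells, and the median log2 ratio was 0.01. Of the snoRNAs 49.1% were lower, with a median of 0.01, and of all entries 50.7%, with a median of -0.01. The split of the 8 was 5 and 3 with equal sums of all entries and 3 and 5 with equal sums of the snoRNA entries, since sno-U29 (-0.04) and sno-U28 (0.0048) changed sign. sno-U30 (-0.52), sno-U27 (-0.38), sno-U25 (-0.30) and sno-U28 (-0.02) were lower. sno-U29 (0.03), sno-U26 (0.09), sno-U22 (0.15) and sno-U31 (0.45) were higher. The sum of the 8 was nearly equal, at 1540297 (wild type) and 1538815 (knockout) normalized counts, or 24.8% and 25.1% of the snoRNA signal. Again none differed by 1.5-fold or more as deposited (sno-U30 did with equal sums of all entries), against 30% of 659 entries and 21.5% of 275 snoRNAs. The counting interval left out 0 for 7 of the 8, and for sno-U28 it ran from -0.05 to 0.02.

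By role, a grouping also made with results known, the 3 small-subunit guides were lower in knockout cells in both tables, with log2 ratios from -0.46 to -0.09 without and from -0.38 to -0.02 with LPS, where sno-U28 was above 0 with equal sums of the snoRNA entries. The 4 large-subunit guides fell on both sides of 0, from -0.31 to 0.36 without and from -0.52 to 0.45 with LPS. With 3 and 4 snoRNAs cut from the same transcript, this is a description and no evidence that the groups of guides differ.

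**Figure D3:**
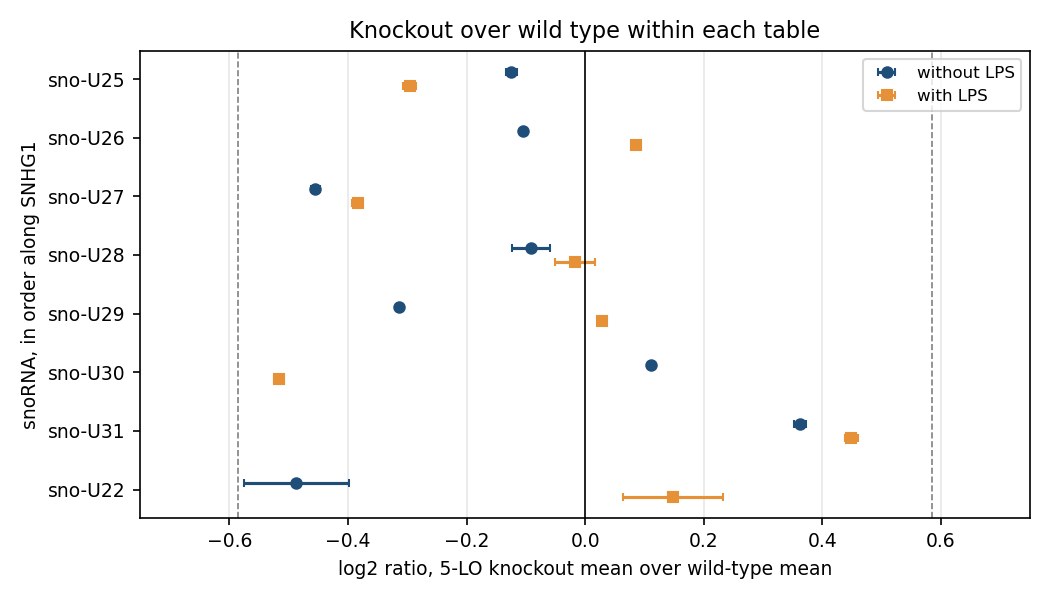
Knockout over wild-type log2 ratio of each snoRNA (horizontal), as deposited, without LPS (circles) and with LPS (squares), with bars for the 95% counting interval and dashed lines at 1.5-fold. All 16 points lie between the dashed lines, sno-U27 and sno-U25 are left of 0 and sno-U31 right of 0 in both tables, and sno-U26, sno-U29, sno-U30 and sno-U22 change sides, although sno-U29 and sno-U30 are left of 0 in both with equal sums of all entries.

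The next comparison set the knockout ratios of the 2 tables side by side. No library is in both, and each table has its own normalization, so ratios were formed within a table. As deposited, the sign was the same in both for sno-U25, sno-U27, sno-U28 and sno-U31 and opposite for the other 4. Other scalings changed the sign in 1 of the tables for sno-U28, sno-U29 and sno-U30. sno-U27 (-0.46 and -0.38), sno-U31 (0.36 and 0.45) and sno-U28 (-0.09 and -0.02) differed by less than 0.1 between the tables as deposited, but by more than 0.1 under each of the 3 other scalings. As deposited, the ratio of sno-U30 was lower with LPS by a log2 difference of -0.63, with a counting interval from -0.64 to -0.62. Among the 275 snoRNAs with a ratio in both tables this was the fifth from the bottom, and the SD of the difference over these snoRNAs was 0.33. In the other direction, sno-U22 was higher by 0.64 (0.51 to 0.76), at rank 10 from the top, and sno-U29 by 0.34, at rank 29. Whether LPS changed the effect of the knockout could not be tested from means.

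The ratio of 1 snoRNA to another within a group does not depend on any scaling between groups or tables, as the factor cancels. Such ratios were compared for all 28 pairs of the 8. Between wild-type and knockout cells, 14 pairs shifted in the same direction in both tables and 14 in opposite directions. By 1.5-fold or more, 4 pairs shifted without LPS and 5 with LPS, and 1 pair did so in both tables in the same direction. As shares of the 28 pairs these were 14.3%, 17.9% and 3.57%. Among the 8128 pairs of the 128 other snoRNAs with means at least as high as the lowest of the 8, 34.1% shifted by 1.5-fold or more without LPS, 33.4% with LPS and 21.8% in both in the same direction, and 79.6% shifted in the same direction by any amount against 50% of the SNHG1 pairs. Pairs share members, so these shares are a description, and most SNHG1 pairs that shifted in opposite directions held sno-U30 or sno-U22. Some shifts were near 0, such as 0.014 (counting interval -0.018 to 0.047) without LPS for the log2 ratio of sno-U28 to sno-U26. The pair past 1.5-fold in both tables in the same direction was sno-U31 and sno-U27, singled out after its values were seen. sno-U30 and sno-U22 also passed it in both, but in opposite directions, with log2 shifts of the ratio of sno-U30 to sno-U22 of 0.60 without and -0.67 with LPS. The ratio of sno-U31 to sno-U27 was 0.468 (wild type) and 0.825 (knockout) without LPS, and 0.454 and 0.809 with LPS. The shift was 1.76-fold and 1.78-fold, or 0.82 (counting interval 0.80 to 0.83) and 0.83 (0.82 to 0.85) on the log2 scale. In both tables sno-U31 had the highest knockout ratio of the 8, and its ratio to each of the other 7 snoRNAs was shifted upward in knockout cells. The shift against sno-U28 was also alike in the 2 tables, 1.37-fold and 1.38-fold. The ratio of sno-U31 to sno-U30, its neighbour in the preceding intron, went from 0.357 to 0.425 without LPS and from 0.383 to 0.748 with LPS.

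The makeup of the 8 was then compared between untreated and LPS-treated cells of the same genotype, by the share of each snoRNA in their sum. In wild-type cells the makeup was nearly the same with LPS as without. The share of sno-U29 was 50.1% without and 50.8% with LPS, that of sno-U26 was 30.04% and 30.67%, and 7 of the 8 shares moved by less than 0.1 on the log2 scale. The exception was sno-U30, whose share was 7.58% without and 6.64% with LPS, a log2 change of -0.19. In knockout cells the shares moved more, with an SD of the log2 changes of 0.43 against 0.07 in wild-type cells, a difference that was not tested. The clone behind each knockout library is not known, so a different mix of clones and a response to LPS cannot be told apart. The 128 other snoRNAs of at least the lowest member's level had the same order of spreads, with SDs of their LPS ratios of 0.28 in knockout and 0.07 in wild-type cells. sno-U30 made up 9.35% of the sum without and 4.64% with LPS, a log2 change of -1.01. sno-U25 (3.63% and 2.77%) had a log2 change of -0.39, and sno-U29 (46.0% and 51.9%) one of 0.17. sno-U22 (0.0392% and 0.0530%) had a log2 change of 0.44. On the scale of the deposited means, which were normalized apart in the 2 tables, all 8 snoRNAs were lower with LPS in wild-type cells, by log2 ratios from -0.37 to -0.15, and 5 of 8 were lower in knockout cells, where the range was from -0.995 to 0.45. Of the 128 other snoRNAs, 97.7% were lower with LPS in wild-type and 82.8% in knockout cells on that scale, with medians of -0.18 and -0.24. As shares of all snoRNA signal, 6 of 8 were lower with LPS in wild-type and 2 of 8 in knockout cells, so this direction depends on the scaling.

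**Figure D4:**
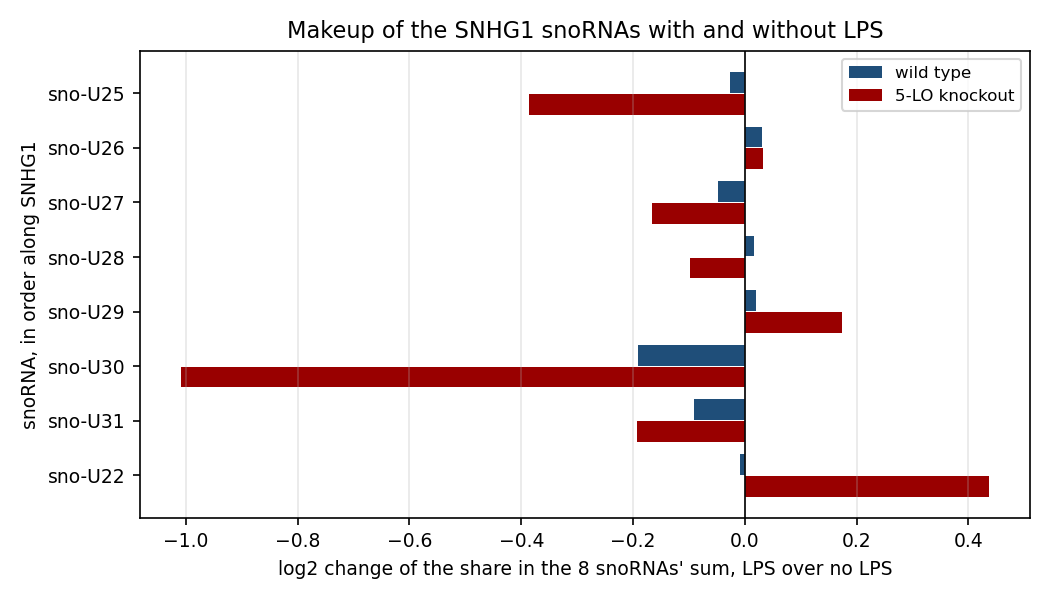
Log2 change of each snoRNA's share in the sum of the 8, LPS-treated over untreated cells (horizontal, bars from 0), in wild-type and knockout cells. The wild-type bars are short, the longest being sno-U30 at -0.19, and among the knockout bars sno-U30 reaches -1.01 and sno-U22 0.44.

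To see whether snoRNAs of 1 host kept together more than others, the spread of the knockout ratios was set beside that of other hosts, which were chosen with results of these data known. The SD over the 8 SNHG1 snoRNAs was 0.29 without LPS and 0.32 with LPS, against 0.47 over all snoRNAs in each table. The 8 are mostly abundant, and over the snoRNAs with means at least as high as the lowest of them the SD was 0.43 (140 snoRNAs) without and 0.41 (136) with LPS. For the 10 snoRNAs of GAS5, another noncoding host gene of the same kind, it was 0.25 and 0.33. The median log2 ratio of the GAS5 snoRNAs was -0.35 without and -0.18 with LPS, with 9 of 10 lower in knockout cells in each table (10 of 10 with equal sums of all entries). The 3 snoRNAs of RPL7A found in the tables, a ribosomal protein gene, were lower throughout, with medians of -0.60 and -0.54. Those of RPL13A, of which 2 of 4 were found, had medians of 0.20 and 0.08, with 1 of them below 0 in each table with equal sums of all entries and in the table without LPS with equal sums of the snoRNA entries. The pair from RACK1 had medians of 0.70 and 0.58, with 1 of 2 lower without LPS and 0 of 2 with LPS, and lay far apart, with log2 ratios of -0.21 and 1.61 without LPS and 0.09 and 1.07 with LPS. The SDs were 0.20 and 0.08 for RPL13A, 0.34 and 0.05 for RPL7A and 1.28 and 0.69 for RACK1, each over 2 or 3 snoRNAs. The SD within SNHG1 was thus below that over all snoRNAs and over the abundant ones, but not below that of every other host, and none of these differences was tested. Its 8 members did not share 1 direction in either table.

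**Figure D5:**
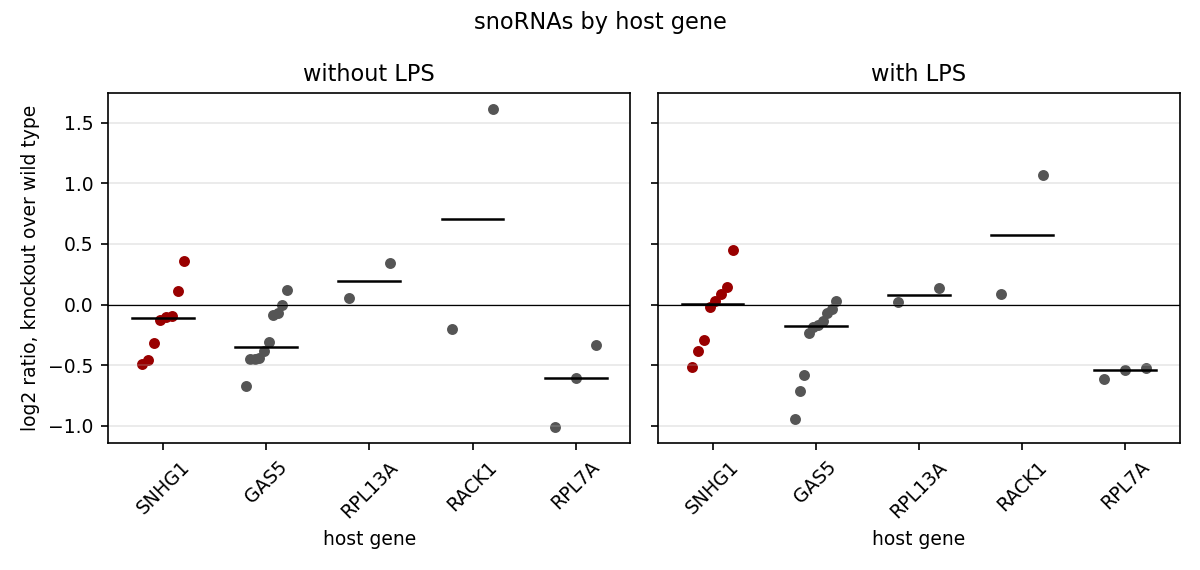
Log2 ratio of knockout to wild type (vertical) for the snoRNAs of 5 host genes without LPS (left) and with LPS (right), 1 point per snoRNA, with a line at the median and SNHG1 in red. The SNHG1 points lie on both sides of 0 in both tables, from -0.49 to 0.36 without and from -0.52 to 0.45 with LPS.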

How the data were processed

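The authors trimmed the kit adapters, annotated the reads against hg19 with the web tool omiRas and deposited, per genotype and table, the mean of the normalized counts of 3 libraries, used here as a signal. For the scaling, the aligner, the tool version and the mismatches allowed, the sources used here give nothing. The fold change, p-value and FDR columns hold the authors' own comparison and were not used.

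Groups were taken from the sample titles. The planned count test could not be run on means. Log2 ratios were formed without a pseudocount. Backgrounds used entries above 0 in both genotypes with a mean of at least 10. All means of at most 10 (352 to 439 per group) were sums of whole multiples of 3 steps within 1e-05 of the value (or of 1, if larger), a tolerance met by 5.01% to 8.58% of evenly spaced values up to 10, and size factors ran from 0.665 to 1.72. Reads carry no molecular identifiers in the tables, so 95% intervals cover counting error only. Tables were also simulated with the sampling of reads as the only variation, which is what the intervals assume. There the intervals covered the true ratio of 200 changed entries in 96.5% of cases without LPS (1231 entries) and 93.5% with LPS (1139 entries). Spread between replicates or clones was not simulated.

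snoRNAs were located in GRCh37 with GENCODE and RefSeq names: box D as CTGA, box C as NTGATGA or otherwise ATGANNN, and a length within 3 bases of RefSeq allowing 5 bases outside each box. All 8 members were named in the text, other hosts by counts, medians and spreads, and RACK1, with 2 snoRNAs, also by each ratio. One of the host lists is not reported here. Alternatives were 3 other scalings, an added 1, other minimum means and 2-fold. The comparisons with snoRNAs of at least the lowest member's mean were added after seeing the data. The members, host lists and roles were chosen with earlier results of these data known. Python 3.11.15, numpy 2.4.6, pandas 2.3.3, Biopython 1.88 and matplotlib 3.10.9 were used.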

Additional observations from a re-analysis of the deposited data

How the results depend on the processing

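Scaling both genotypes to equal sums of all entries moved every log2 ratio by -0.17 without LPS and -0.07 with LPS. The median of the 8 then became -0.29 without and -0.065 with LPS, 7 and 5 snoRNAs were lower in knockout cells, 2 (sno-U22 and sno-U27) and 1 (sno-U30) passed 1.5-fold, and sno-U30 without LPS and sno-U29 with LPS changed sign. Equal sums of the snoRNA entries gave medians of -0.17 and 0.028, with a changed sign for sno-U28 with LPS, and setting the median of all entries to 0 gave -0.14 and 0.020. The median difference between the tables was 0.08 as deposited and 0.18, 0.16 and 0.12 under these scalings. Adding 1 to every mean changed no sign among the 8 and neither count of snoRNAs past 1.5-fold, and other minimum means left the medians as they were. At 2-fold, again 0 of the 8 passed in either table, and none of the pairs of the 8 did, since the largest pair shift was 1.95-fold. Given as a range, the spread of the 8 ratios was 0.85 and 0.97. Per base, sno-U29 made up 52.8% (wild type) and 48.7% (knockout), and 53.5% and 54.6% with LPS. Without sno-U29, sno-U26 made up 60.2%, 59.0%, 62.3% and 67.7% of the rest. No paired analysis was possible because the columns are means and carry no replicate number, and for the same reason leaving out single libraries was not run.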
